A study of Mus musculus with 20 samples.

Results

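The genes described here drive the G1/S transition and copy the genome. They are 41 genes chosen by symbol, among 55367 gene symbols listed for each library, and cover origin licensing, the replicative helicase and its activation, polymerases and primase, the sliding clamp and its loader, Okazaki fragment joining, nucleotide supply, chromatin behind the fork, and the E2F and cyclin E regulators of S-phase entry. All 41 were listed in every library and passed the expression filter, and a member's count in a library lay between 41 and 5691 reads. Their mean level over the 20 libraries lay between 2.86 and 136 CPM, the read count scaled for the size of the library.

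The hearts came from C57BL/6J mouse pups at postnatal day 4 that had been kept since birth in 100% oxygen (hyperoxia) or in room air (21%), nursed by dams that moved between both atmospheres each day. Polyadenylated RNA was sequenced from hyperoxic left atria, room-air left atria, hyperoxic left ventricles and room-air left ventricles, with 5 libraries in each of the 4 groups, said to come from 5 individual mice per group. The labels name no transgene or mutation in any group, and whole chambers were used, so each library can mix cardiomyocytes with endothelial cells, fibroblasts and blood cells. The atrial markers (Myl7, Myl4, Sln and Nppa) summed to between 25951 and 50097 CPM in hyperoxic atria and between 17748 and 22897 CPM in room-air atria, against 215 to 838 CPM in hyperoxic ventricles and 1015 to 1923 CPM in room-air ventricles. No marker of the atrial, ventricular or cell type lists was at 0 in a whole group.

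Before S phase, the origin recognition complex with Cdc6 and Cdt1 loads the ring of Mcm2 to Mcm7 onto DNA, which licenses the origin. Cyclin E with Cdk2 then promotes firing, Cdc45 and the GINS complex turn the loaded ring into an active helicase, and polymerases alpha, delta and epsilon copy both strands behind it. Transcription of most of these genes peaks at the G1/S boundary, when E2F factors are released from the retinoblastoma family of pocket proteins. In the mouse heart, cardiomyocytes still divide in the first days after birth and largely leave the cell cycle soon afterwards, while endothelial cells and fibroblasts go on dividing.

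Library depth was 26510081 to 38244117 counted reads. Other measures differed between the libraries besides oxygen and chamber. All 10 room-air libraries held more Y-linked than Xist reads, whereas this held for 1 of the 5 atria from hyperoxia (number 2) and for 2 of the 5 ventricles (2 and 6), so oxygen and sex composition are partly confounded. Hyperoxic atria 2 and 4 and room-air ventricle 4 were tilted towards short transcripts, relative to the libraries of their chamber. Each gene's log2 level was taken as its deviation from the mean of all libraries of the chamber. The slopes of these deviations on log2 exon length were -0.30, -0.29 and -0.23, against -0.07 to 0.14 elsewhere. Myl7, the atrial light chain gene, ranged from 2.66 to 128 CPM in hyperoxic ventricles and from 19.5 to 530 CPM in room-air ventricles.

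The promoters of these genes were read first, because E2F motifs are a feature that many of them are known to share. RefSeq windows on GRCm38.p6 from 250 bases before to 50 bases after the start site were found for 34 of the 41 genes (not for Ccne2, Gins1, Gins2, Gins4, Mcm4, Pole and Prim2). The E2F words searched on both strands were TTTGGCGC, TTTCCCGC, TTTCGCGC and TTTGCCGC. Of the 34 genes, 14 held at least 1 of these words (41.2%), against 704 of 27025 RefSeq genes with a window (2.6%). The 14 were Cdc6, Cdt1, E2f2, Gins3, Lig1, Mcm3, Mcm5, Mcm6, Mcm7, Orc1, Pola1, Pold1, Rfc3 and Uhrf1. The word CCAAT, the core of the NF-Y motif, was in 20 of the 34 (58.8%) and in 41.1% of all genes with a window. The 4 windows below belong to genes with an E2F word that were higher in the hyperoxic ventricle, with the E2F words in capitals. The fifth is Mcm2, which had the smallest p in that comparison and holds none of the 4 words, with its CCAAT word in capitals, which reads ATTGG on the strand shown.
Mcm5: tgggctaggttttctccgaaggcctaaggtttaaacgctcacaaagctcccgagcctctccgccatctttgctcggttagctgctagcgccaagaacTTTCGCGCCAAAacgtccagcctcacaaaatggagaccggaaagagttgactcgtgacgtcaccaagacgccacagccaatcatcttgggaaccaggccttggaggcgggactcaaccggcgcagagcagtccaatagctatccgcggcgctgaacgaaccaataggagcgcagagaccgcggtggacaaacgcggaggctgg
Mcm6: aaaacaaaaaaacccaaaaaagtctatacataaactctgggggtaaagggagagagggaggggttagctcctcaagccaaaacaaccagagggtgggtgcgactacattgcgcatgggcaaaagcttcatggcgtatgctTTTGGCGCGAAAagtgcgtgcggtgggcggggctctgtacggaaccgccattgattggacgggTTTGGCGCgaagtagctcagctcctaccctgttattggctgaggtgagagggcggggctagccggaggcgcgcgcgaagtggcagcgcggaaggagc
Cdc6: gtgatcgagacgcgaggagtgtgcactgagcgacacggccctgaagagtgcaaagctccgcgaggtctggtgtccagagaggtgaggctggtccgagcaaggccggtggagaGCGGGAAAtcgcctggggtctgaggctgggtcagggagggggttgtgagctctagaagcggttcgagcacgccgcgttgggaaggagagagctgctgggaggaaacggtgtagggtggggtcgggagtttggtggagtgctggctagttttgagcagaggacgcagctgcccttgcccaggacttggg
Mcm7: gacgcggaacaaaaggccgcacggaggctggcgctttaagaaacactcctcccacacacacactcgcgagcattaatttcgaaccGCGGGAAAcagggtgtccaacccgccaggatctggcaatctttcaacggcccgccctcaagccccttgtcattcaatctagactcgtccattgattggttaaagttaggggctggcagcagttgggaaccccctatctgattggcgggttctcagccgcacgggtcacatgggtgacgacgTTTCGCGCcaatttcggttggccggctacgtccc
Mcm2: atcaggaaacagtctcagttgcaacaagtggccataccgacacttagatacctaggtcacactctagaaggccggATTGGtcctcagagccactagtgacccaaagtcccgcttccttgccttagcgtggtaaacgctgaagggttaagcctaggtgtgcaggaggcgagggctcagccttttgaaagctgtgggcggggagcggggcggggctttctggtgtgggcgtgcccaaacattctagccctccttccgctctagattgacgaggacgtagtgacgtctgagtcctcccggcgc

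Each is shown 5′ to 3′ on the strand of its gene. On GRCm38.p6 they lie at chr8:75109259-75109558 (plus strand, Mcm5), chr1:128359656-128359955 (minus strand, Mcm6), chr11:98907901-98908200 (plus strand, Cdc6), chr5:138171834-138172133 (minus strand, Mcm7, the window of its 2 that holds the words) and chr6:88898731-88899030 (minus strand, Mcm2). In the Mcm5 window a word on the gene's strand at -153 to -146 from the start site overlaps one on the opposite strand at -149 to -142. The Mcm6 window has such an overlapping pair at -110 to -103 and -106 to -99, and a further word at -47 to -40. Cdc6 has a word on the opposite strand at -138 to -131, and Mcm7 has words at -165 to -158 and at 17 to 24. These 2 windows lie wholly inside the GENCODE spans of their genes, 98907801 to 98923940 for Cdc6 and 138164583 to 138172422 for Mcm7. Their RefSeq start sites are thus downstream of the outermost GENCODE starts. A match describes letters in this window and not a bound site. In the hyperoxic ventricle, 4 of the 14 genes with an E2F word rose and 4 of the 20 without, and the median log2 differences were 0.20 and 0.19.

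The first comparison asked how these genes differed in the left ventricle after hyperoxia from birth. Of the 41 genes 10 were higher (adjusted p under 0.05, edgeR), among them 5 of 6 MCM subunits and both cyclin E genes, and 0 were lower. Of all 16598 genes tested, 5.64% were higher and 5.28% lower at that threshold by edgeR. DESeq2 and limma-voom also called 0 of the 41 lower, against 1505 and 1404 of all 16598 genes. At an unadjusted p under 0.05, 0 of the 41 were lower and 16 higher. The share over all genes at an unadjusted p was not counted. The 10 were Mcm2, Mcm4, Mcm5, Mcm6, Mcm7, Cdc45, Cdc6, Rrm1, Ccne1 and Ccne2, with fold differences from 1.19 (Mcm7) to 1.71 (Ccne2). The median log2 difference of the 41 was 0.19, against -0.01 over all genes tested, and 32 of the 41 lay above 0. In whole-tissue RNA, more cells in S phase and more of these transcripts per cell cannot be told apart.

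**Figure D1:**
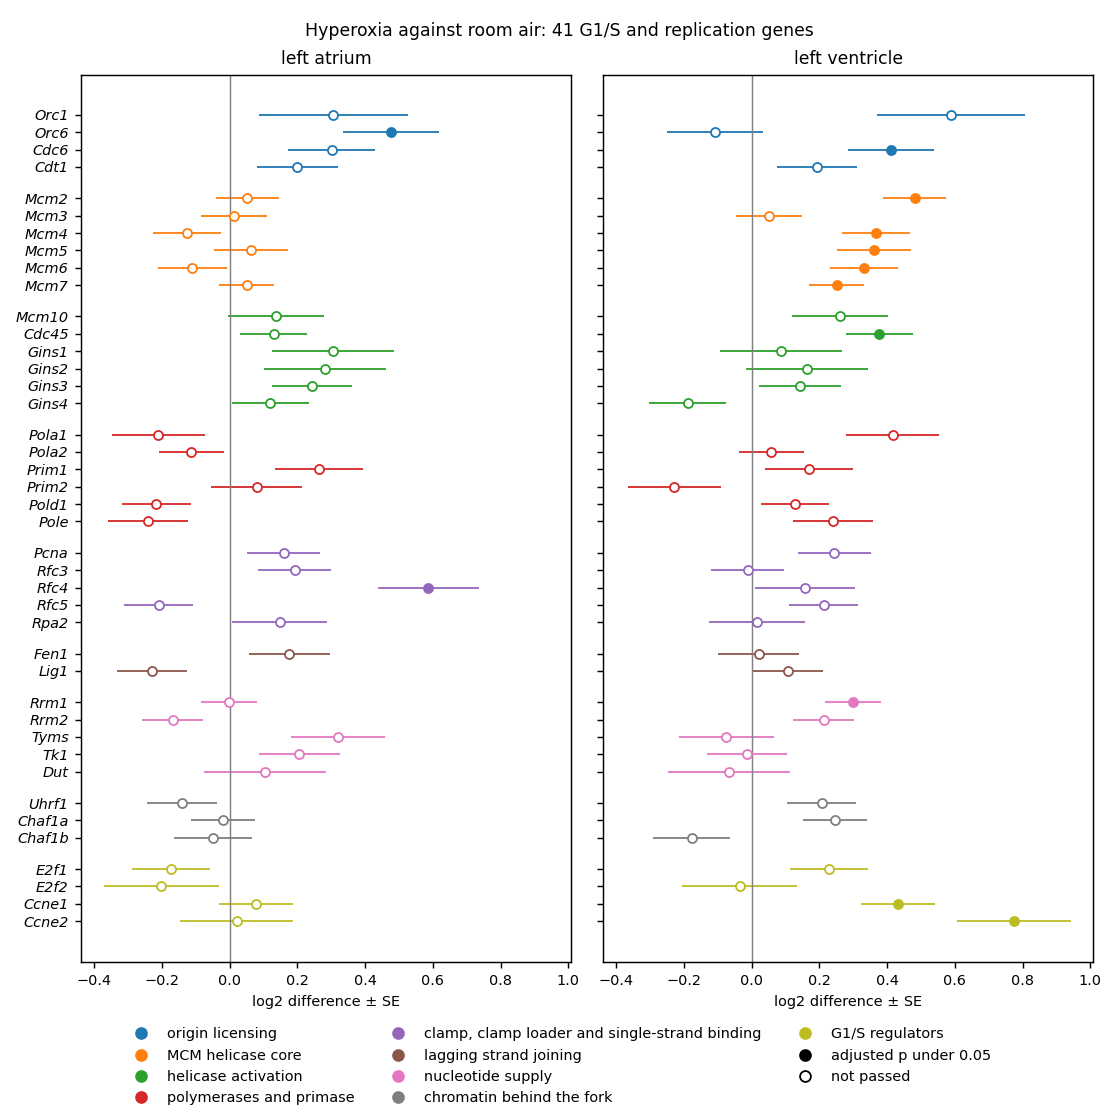
Log2 difference of hyperoxia against room air (x axis, points with standard error bars) for each of the 41 genes (rows, coloured by role), in the left atrium (left panel) and the left ventricle (right panel), with filled points where the adjusted p was under 0.05. In the ventricle 10 points are filled, all to the right of 0, and in the atrium 2 are filled, Orc6 and Rfc4.

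Mcm2, a subunit of the MCM ring (chromosome 6, 88883474 to 88898780), had 84.3, 78.3, 80.3, 91.6 and 102 CPM in hyperoxic ventricles 1, 2, 4, 5 and 6, against 66.6, 53.1, 67.9, 64.4 and 60.6 CPM in room-air ventricles 1 to 5. Every hyperoxic library lay above every room-air library. The log2 difference was 0.48 (SE 0.09, adjusted p = 0.0039), a fold of 1.40. Ccne2, which encodes cyclin E2, an activator of Cdk2 at G1/S (chromosome 4, 11191351 to 11204779), had 17.3, 15, 26.2, 20 and 20.8 CPM in the hyperoxic ventricles, against 11.2, 10.5, 15.5, 8.58 and 12.1 CPM in the room-air ventricles. The groups overlapped only between hyperoxic ventricle 2 and room-air ventricle 3, and the log2 difference was 0.77 (SE 0.17, adjusted p = 0.0077). Ccne2 shares exonic bases with Ints8 on the other strand, and its count is uncertain to that extent, as the strand setting is not given. Ccne1, which encodes cyclin E1 (chromosome 7, 38097984 to 38107534), had 17.7, 15.4, 17.1, 19.2 and 20.9 CPM in the hyperoxic ventricles, against 14.2, 12, 13.3, 13.1 and 14.3 CPM in the room-air ventricles. These groups did not overlap, and the log2 difference was 0.43 (SE 0.11, adjusted p = 0.017).

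Of the 6 subunits of the MCM ring, 5 rose in the hyperoxic ventricle. Besides Mcm2 these were Mcm4 (58.9 ± 6.45 against 45.7 ± 4.97 CPM, log2 0.37), Mcm5 (83.1 ± 11.5 against 64.7 ± 7.89 CPM, log2 0.36), Mcm6 (117 ± 15.8 against 93.1 ± 12.3 CPM, log2 0.33) and Mcm7 (97.3 ± 9.56 against 81.7 ± 4.66 CPM, log2 0.25), each as mean ± SD with n = 5 hyperoxic and n = 5 room-air ventricles. Their adjusted p lay between 0.023 and 0.049. Mcm3, the sixth subunit, had 75.4 ± 8.66 CPM in hyperoxic and 72.8 ± 9.77 CPM in room-air ventricles and did not pass (log2 0.05, SE 0.10, adjusted p = 0.76). Mcm7 shares exonic bases with the microRNA genes Mir25 and Mir93 on its own strand and with Ap4m1 and Cops6 on the other. Its count is uncertain to that extent.

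The loaders and activators of the ring were mixed. Cdc6, the ATPase that brings the ring to the origin, rose to 14 ± 1.38 CPM in the hyperoxic ventricles, against 10.5 ± 1.47 CPM in room-air ventricles (log2 0.41, SE 0.13, adjusted p = 0.042), and the groups did not overlap. Cdt1, its partner in loading, had a log2 difference of 0.19 (adjusted p = 0.28), and the origin recognition subunits Orc1 and Orc6 had 0.59 (SE 0.22, adjusted p = 0.080) and -0.11 (adjusted p = 0.64). Orc1 is the lowest member, at 4.12 ± 0.83 CPM in hyperoxic and 2.73 ± 0.84 CPM in room-air ventricles. Cdc45, which joins the ring with GINS to form the active helicase, had 30.8 ± 2.96 CPM in hyperoxic and 23.7 ± 1.58 CPM in room-air ventricles. All hyperoxic values exceeded all room-air values (log2 0.38, SE 0.10, adjusted p = 0.021). None of the 4 GINS subunits passed, with log2 differences of 0.09 (Gins1), 0.16 (Gins2), 0.14 (Gins3) and -0.19 (Gins4), nor did Mcm10 (0.26), which helps start unwinding.

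None of the 6 genes of polymerases and primase passed, with log2 differences between -0.23 (Prim2) and 0.42 (Pola1). Pola1, the catalytic subunit of polymerase alpha on chromosome X, came closest: its hyperoxic values of 19.1 to 25.2 CPM lay just above its room-air values of 13.5 to 19 CPM (adjusted p = 0.053). None of the 5 genes of the clamp, its loader and single-strand binding passed, with Pcna, the sliding clamp, at 116 ± 11.7 CPM in hyperoxic and 97.5 ± 5.96 CPM in room-air ventricles (log2 0.24, adjusted p = 0.13). The flap nuclease gene Fen1 (0.02) and the ligase gene Lig1 (0.11), which finish the lagging strand, did not pass either.

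Of the 5 genes of nucleotide supply, Rrm1 rose, which encodes the large subunit of ribonucleotide reductase. It had 163 ± 14.3 CPM in hyperoxic and 132 ± 5.53 CPM in room-air ventricles, with no overlap (log2 0.30, SE 0.08, adjusted p = 0.025). Rrm2, the small subunit whose level follows S phase, had 175 ± 12.5 CPM in hyperoxic and 151 ± 12.3 CPM in room-air ventricles and did not pass (log2 0.21, adjusted p = 0.12). Tyms, Tk1 and Dut, which make or protect thymidine nucleotides, had log2 differences of -0.07, -0.01 and -0.07. Tyms and Pcna have pseudogene copies that can share their reads, which leaves their counts uncertain. Among the genes of chromatin behind the fork, the maintenance methylation factor Uhrf1 and the large chromatin assembly subunit Chaf1a had 0.21 and 0.25, and the middle subunit Chaf1b had -0.18, and none passed. E2f1 and E2f2, activator E2Fs, had 0.23 and -0.03 and did not pass.

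Summed over the 41 genes, the hyperoxic ventricles held 1777 to 2194 CPM (mean 2004 ± 154, n = 5) and the room-air ventricles 1625 to 1901 CPM (1758 ± 120, n = 5), so the groups overlapped. Hyperoxic ventricle 6 had the highest sum and hyperoxic ventricle 2 the lowest of its group, and both of these held more Y-linked than Xist reads. In hyperoxic ventricle 6, 39 of the 41 genes lay above the mean of all 10 ventricles, the most of any ventricle. Hyperoxic ventricles 1, 2, 4 and 5 had 30, 9, 26 and 29 such genes. Room-air ventricles 1 to 5 had 15, 8, 18, 20 and 2, so the groups overlapped through hyperoxic ventricle 2. The share over all genes was not counted.

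**Figure D2:**
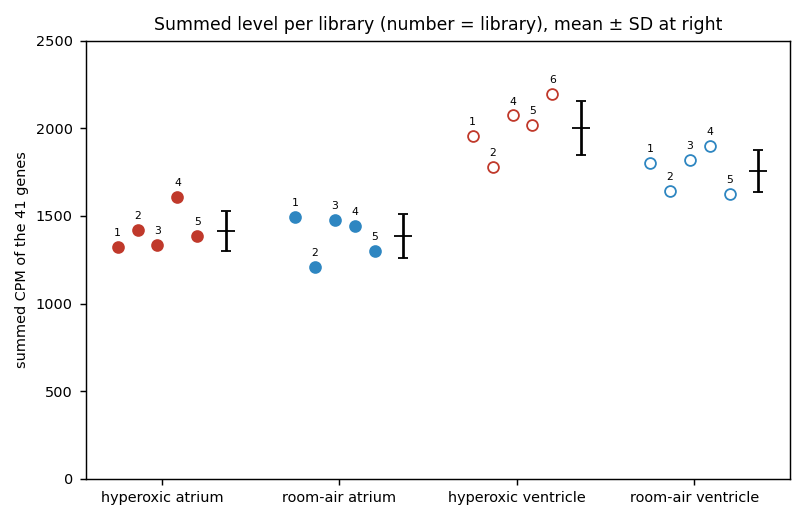
Summed CPM of the 41 genes (y axis, from 0) in each of the 20 libraries (points with the library number), grouped by chamber and oxygen, with mean ± SD at the right of each group. All 10 ventricles lie above all 10 atria, and the hyperoxic and room-air libraries overlap within each chamber.

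The number of ventricular calls depended on the libraries and the model. Leaving out 1 library left 4 of 41 higher without hyperoxic ventricle 4, 2 without number 5, 2 without number 6, 4 without room-air ventricle 1, 5 without number 2, and 6 without number 4 or 5. With Y-linked reads as a covariate 0 passed, as when the fit kept only the Y-rich libraries, in which Y-linked reads outnumber Xist reads (2 hyperoxic and 5 room-air ventricles), and with Myl7 of the ventricles as a covariate 0 passed. Mcm2 kept its size in these 3 fits, with log2 differences of 0.46 (SE 0.14, adjusted p = 0.22), 0.52 (SE 0.13, adjusted p = 0.053) and 0.50 (SE 0.13, adjusted p = 0.079), while Rrm1 went to 0.09, 0.23 and 0.24 and Ccne2 to 0.38, 0.62 and 0.71. Without hyperoxic ventricle 4 and room-air ventricles 1 and 4, Mcm2 alone passed (log2 0.56, SE 0.12, adjusted p = 0.021). Without the 3 tilted libraries 12 passed. Calls over all genes moved as well: without hyperoxic ventricle 4, 602 of 16808 genes tested were higher, against 936 of 16598 with all libraries. Shares over all genes are not set beside the other counts, so a lost call is not read as particular to the 41 genes.

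Beside these values, the summed cell type markers of the ventricles overlapped between oxygen levels except for the erythroid list; the atrial list given above did not overlap either. The 5 cardiomyocyte markers summed to between 28218 and 31634 CPM in hyperoxic and between 26848 and 41081 CPM in room-air ventricles, with 1 of 5 higher and 0 lower. Endothelial markers summed to between 1162 and 1364 CPM in hyperoxic and between 1249 and 1645 CPM in room-air ventricles, with 2 of 5 lower. The 6 erythroid markers summed to between 901 and 1266 CPM in hyperoxic and between 1802 and 2853 CPM in room-air ventricles, without overlap, with 2 of 6 lower. None of these markers was at 0, and their part in the result was not tested.

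In the left atrium the same comparison gave 2 higher genes of 41, Rfc4 and Orc6, and 0 lower, while 19.7% of all genes tested were higher and 24.2% lower. At an unadjusted p under 0.05, 4 were higher (Rfc4, Orc6, Cdc6 and Tyms) and 3 lower (Lig1, Pold1 and Rfc5) by edgeR. The share over all genes at an unadjusted p was not counted. DESeq2 called 4 higher and 0 lower, against 3741 and 4014 of all 16598 genes. With quality weights, limma-voom called 4 higher and 4 lower, against 3994 and 5208 of all 16598 genes. The median log2 difference of the 41 was 0.08, against -0.06 over all genes tested, with 26 above 0 and 15 below. It was -0.02 without the tilted libraries, -0.04 with the length slope and -0.10 with the length slope and Y-linked reads as covariates. With limma-voom it was 0.0061. Without hyperoxic atrium 2 alone it was 0.09 and without hyperoxic atrium 4 alone 0.03, so its sign depended on the setting.

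Rfc4, a subunit of the clamp loader (chromosome 16, 23113943 to 23127737), had 16.2, 28.2, 18.4, 31.7 and 20.9 CPM in hyperoxic atria 1 to 5, against 16.2, 13.2, 16.2, 17.1 and 14.1 CPM in room-air atria 1 to 5. Hyperoxic atria 2 and 4 were high, and hyperoxic atrium 1 lay within the room-air range. The log2 difference was 0.59 (SE 0.15, adjusted p = 0.0030). Orc6, the smallest subunit of the origin recognition complex (chromosome 8, 85299632 to 85308278), had 22.6, 36.1, 23.3, 37.3 and 24.3 CPM in the hyperoxic atria, against 22.6, 19, 22, 21.9 and 17.6 CPM in the room-air atria. Again numbers 2 and 4 were high, and all hyperoxic values lay above the room-air range, the lowest of them by less than the rounding shown (log2 0.48, SE 0.14, adjusted p = 0.0091). Both genes overlap an exon of a neighbour on the other strand, Eif4a2 at Rfc4 and Vps35 at Orc6, and whether the counting used strand is not given in the sources used here.

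Hyperoxic atria 2 and 4 are the tilted libraries. Without the tilted libraries Rfc4 had a log2 difference of 0.27 (SE 0.11, adjusted p = 0.060) and Orc6 0.18 (SE 0.10, adjusted p = 0.17), so neither passed. With the length slope as a covariate the values were 0.23 (adjusted p = 0.095) and 0.13 (adjusted p = 0.31), and with Y-linked reads as a covariate 0.61 (adjusted p = 0.069) and 0.59 (adjusted p = 0.065). Dut, which removes uracil nucleotides and was singled out after its values were seen, had 64.4 and 70.1 CPM in hyperoxic atria 2 and 4 and 31.7 to 36.2 CPM in the other 3, against 36.8 to 51.7 CPM in the room-air atria. Its log2 difference was 0.10 with all libraries and -0.35 without the tilted ones. Across the 41 genes the atrial log2 difference correlated with log2 exon length at Pearson r = -0.47 and Spearman rho = -0.43, and at 0.09 and 0.06 without the tilted libraries, a description over genes of the same libraries.

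**Figure D3:**
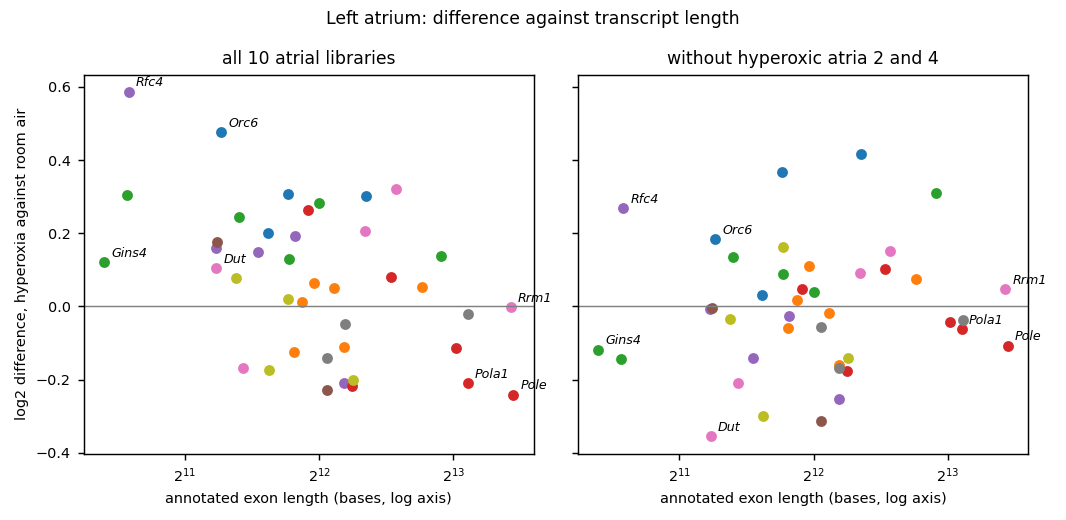
Log2 difference of hyperoxic against room-air atria (y axis) and annotated exon length in bases (x axis, log scale) for the 41 genes, coloured by role, with all 10 atrial libraries (left) and without hyperoxic atria 2 and 4 (right). The downward slope on the left (r = -0.47) is not seen on the right (r = 0.09).

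By role, the 6 MCM subunits of the atrium lay between -0.13 (Mcm4) and 0.06 (Mcm5) on the log2 scale and none passed. Mcm2 had 60.5 ± 3.65 CPM in hyperoxic and 58.3 ± 7.05 CPM in room-air atria (n = 5 each). The 6 genes of polymerases and primase lay between -0.24 (Pole) and 0.26 (Prim1), and none passed. Cdc6 had 9.8 ± 1.42 CPM in hyperoxic and 7.95 ± 1.18 CPM in room-air atria (log2 0.30, adjusted p = 0.060). The 6 genes of helicase activation lay between 0.12 and 0.30 without passing; without the tilted libraries Gins1 was at -0.14 and Gins4 at -0.12. In the fit of all libraries the 3 genes of chromatin behind the fork lay between -0.14 and -0.02. Ccne1 and Ccne2 had 0.08 and 0.02. The sum over the 41 genes was 1322 to 1607 CPM in hyperoxic atria (1415 ± 115) and 1211 to 1496 CPM in room-air atria (1386 ± 124), with the highest sum in hyperoxic atrium 4.

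With 1 library left out, the count of atrial calls was 2 to 6 higher and 0 to 3 lower. Over all genes tested, 19.7% were higher and 24.2% lower in the fit of all libraries. Shares over all genes with a library left out are not set beside these counts, so the counts are not read as small or large. Of the libraries compared, leaving out hyperoxic atrium 4 gave 1 lower gene and leaving out room-air atrium 2 gave 3; of the ventricles, which set the spread and the scale of the shared model, leaving out hyperoxic ventricle 5 gave 6 higher and leaving out hyperoxic ventricle 4 gave 2 lower. Several marker lists differed between the atria. None of the 6 erythroid markers passed. All 5 endothelial markers were lower, with a sum of 484 to 719 CPM in hyperoxic and 814 to 979 CPM in room-air atria, and of 5 fibroblast markers 4 were lower and 1 higher, with a sum of 1507 to 2099 CPM in hyperoxic and 2940 to 3664 CPM in room-air atria. Of the 5 macrophage markers 3 were higher, with a sum of 159 to 217 CPM in hyperoxic and 123 to 138 CPM in room-air atria. None of these markers was at 0, and their part in the atrial values was not tested.

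Whether the oxygen response differed between the chambers was tested as the atrial minus the ventricular log2 difference. Of the 41 genes 1 was higher and 9 were lower in this test, against 17% and 19.5% of all genes tested, so the share lower, 9 of 41, was close to that of all genes. The 9 were Mcm2, Mcm4, Mcm6, Ccne2, Pola1, Pole, Rfc5, Rrm1 and Rrm2, each with a more positive difference in the ventricle than in the atrium, and the gene with a more positive difference in the atrium was Orc6. The median over the 41 was -0.17, against -0.06 over all genes tested.

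Mcm4, a catalytic subunit of the ring (chromosome 16, 15623897 to 15637400), had 43.5, 35.1, 43.6, 44.7 and 47.9 CPM in the hyperoxic atria, against 51.1, 40.5, 50.9, 46.1 and 45.8 CPM in the room-air atria. In the ventricles it had 52.4, 52.2, 64.2, 59.8 and 66 CPM under hyperoxia, against 39.6, 43.7, 53.3, 45.7 and 46.1 CPM in room air. The atrial groups overlapped with the hyperoxic mean slightly below, the ventricular groups overlapped only through room-air ventricle 3, and the difference of differences was -0.49 (SE 0.14, adjusted p = 0.0097). Pola1 (chromosome X, 93304767 to 93632155) had 14, 10.2, 16.5, 14.6 and 18.8 CPM in the hyperoxic atria, against 18, 16, 20.3, 15.4 and 16 CPM in the room-air atria. Its ventricular values were 19.1, 23.4, 25.2, 20.7 and 22.4 CPM under hyperoxia, against 14.4, 13.5, 19, 18 and 18.1 CPM in room air. The difference of differences was -0.63 (SE 0.19, adjusted p = 0.016), and Mcm2 followed with -0.43 (SE 0.13, adjusted p = 0.016).

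The remaining values were -0.75 for Ccne2, -0.44 for Mcm6, -0.38 for Rrm2, -0.42 for Rfc5, another clamp loader subunit, -0.48 for Pole, the catalytic subunit of polymerase epsilon, and -0.30 for Rrm1, with adjusted p between 0.017 and 0.047. Orc6 had 0.58 (SE 0.20, adjusted p = 0.027). Without the tilted libraries Orc6 had 0.21 (adjusted p = 0.29) and Ccne2 -0.52 (adjusted p = 0.076), while Mcm4 (-0.43, adjusted p = 0.022), Mcm2 (-0.42, adjusted p = 0.026) and Pola1 (-0.51, adjusted p = 0.031) passed. With the length slope as a covariate Mcm4, Mcm2 and Pola1 had -0.34, -0.42 and -0.31 and did not pass (adjusted p of 0.14, 0.060 and 0.36). With Y-linked reads as a covariate Mcm4, Mcm2 and Pola1 had -0.53, -0.44 and -0.68 and passed (adjusted p of 0.0064, 0.018 and 0.011). Without hyperoxic ventricle 5, 4 genes were lower and Mcm2 was not among them. The call of Orc6 was lost without hyperoxic atrium 2 or 4, hyperoxic ventricle 2, room-air atrium 5 or room-air ventricle 4, which left 0 responses higher in the atrium, while 3 passed without hyperoxic atrium 1 and 2 without hyperoxic ventricle 4.

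**Figure D4:**
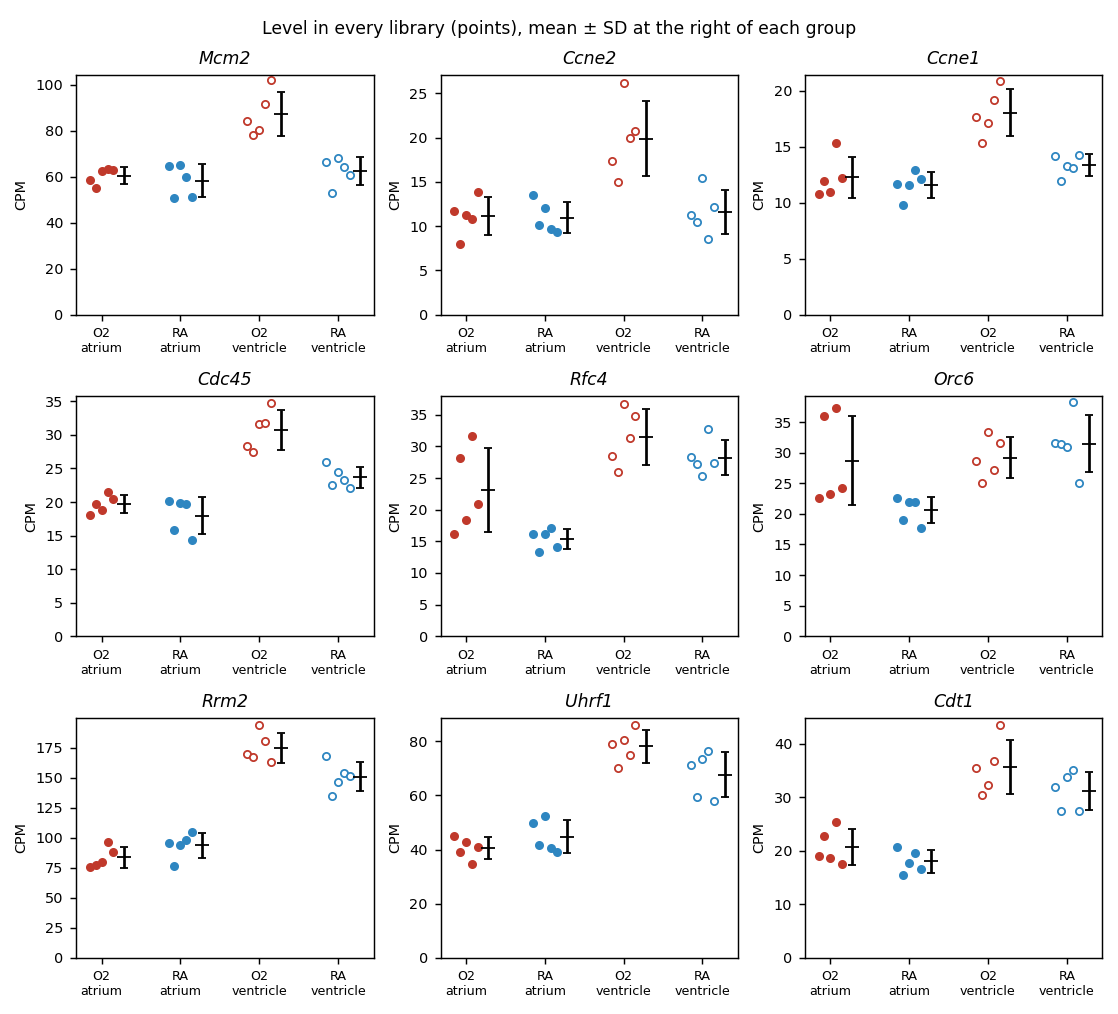
CPM of 9 of the genes (one panel each, y axis from 0) in every library (points) of the hyperoxic (O2) and room-air (RA) atria and ventricles, with mean ± SD at the right of each group. Mcm2, Ccne2, Ccne1 and Cdc45 are higher in hyperoxic than in room-air ventricles, Rfc4 and Orc6 each have 2 high hyperoxic atria, and Rrm2, Uhrf1 and Cdt1 are lower in atria than in ventricles.

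More of these genes differed between the chambers than between oxygen levels. In hyperoxia 30 of 41 genes were lower in the left atrium than in the left ventricle and 0 were higher, against 23.6% lower and 25.2% higher of all genes tested. In room air 23 of 41 were lower and 0 higher, against 26.3% lower and 28.7% higher. Higher genes also numbered 0 in both comparisons by DESeq2, by limma-voom and at an unadjusted p under 0.05 by edgeR. Of all 16598 genes DESeq2 called 4658 higher in hyperoxia and 4817 in room air, and limma-voom 5014 and 5585. The share over all genes at an unadjusted p was not counted. The median log2 difference of the 41 was -0.49 in hyperoxia and -0.37 in room air, against 0.01 and 0.03 over all genes tested. With the length slope as a covariate it was -0.58 in hyperoxia and -0.22 in room air. Of these calls, 19 of 30 in hyperoxia and 14 of 23 in room air passed in every one of up to 36 alternative settings.

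Rrm2 (chromosome 12, 24708241 to 24714146) had 75.7, 77.5, 79.7, 96.7 and 87.6 CPM in the hyperoxic atria, against 170, 167, 194, 180 and 163 CPM in the hyperoxic ventricles. In room air it had 95.5, 76.7, 94.2, 97.6 and 105 CPM in the atria, against 168, 134, 146, 154 and 152 CPM in the ventricles. No atrium reached the lowest ventricle. The log2 difference was -1.07 in hyperoxia (SE 0.09, adjusted p = 1.9e-09) and -0.69 in room air (SE 0.09, adjusted p = 1.4e-06), the most negative of the 41 in hyperoxia. Uhrf1, which recruits the maintenance methyltransferase to new DNA (chromosome 17, 56303321 to 56323486), had 45.1, 39, 42.8, 34.7 and 40.9 CPM in the hyperoxic atria, against 78.9, 70, 80.6, 75.1 and 86.2 CPM in the hyperoxic ventricles. Its room-air values were 49.9, 41.5, 52.5, 40.5 and 39 CPM in the atria, against 71.2, 59.5, 73.6, 76.4 and 58 CPM in the ventricles. Neither pair of groups overlapped, with log2 differences of -0.95 in hyperoxia (SE 0.10, adjusted p = 8.3e-08) and -0.60 in room air (SE 0.10, adjusted p = 3.9e-05).

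Pold1, the catalytic subunit of polymerase delta (chromosome 7, 44532746 to 44548849), had 32.9, 31.2, 31.5, 27.2 and 29.4 CPM in the hyperoxic atria, against 50.3, 50.8, 37.8, 52.5 and 58.6 CPM in the hyperoxic ventricles. Hyperoxic ventricle 4 was the lowest ventricle and still lay above all hyperoxic atria (log2 -0.71, SE 0.10, adjusted p = 4.2e-06). Cdt1, the licensing factor that geminin restrains (chromosome 8, 122568015 to 122573554), had 20.7, 15.4, 17.7, 19.6 and 16.7 CPM in the room-air atria, against 31.9, 27.5, 33.8, 35.2 and 27.5 CPM in the room-air ventricles, with no overlap (log2 -0.79, SE 0.12, adjusted p = 9.2e-06). In hyperoxia it had the same log2 difference of -0.79 (SE 0.12, adjusted p = 1.0e-05).

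By role in hyperoxia, all 6 MCM subunits were lower in the atrium (log2 -0.53 to -0.42), as were all 4 G1/S regulators (-0.83 for Ccne2, -0.76 for E2f1, -0.70 for E2f2 and -0.56 for Ccne1), 5 of 6 genes of polymerases and primase, 4 of 5 of nucleotide supply, 3 of 4 of origin licensing, 3 of 5 of the clamp group, 2 of 3 of chromatin, 2 of 6 of helicase activation and 1 of 2 of strand joining. None of the 4 GINS subunits passed there. In room air only Mcm3 (-0.40) and Mcm7 (-0.21) of the 6 MCM subunits and E2f1 (-0.36) and E2f2 (-0.53) of the 4 G1/S regulators passed. With the length slope as a covariate Mcm7 (-0.14, adjusted p = 0.14) and E2f1 (-0.22, adjusted p = 0.085) did not pass in room air. The 2 chamber comparisons have no library in common, and the test of their difference is the same test of atrium minus ventricle response given above. Of the 18 genes that did not pass in room air, Pola1 (0.05) and Mcm4 (0.04) were the 2 with a log2 difference above 0.

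**Figure D5:**
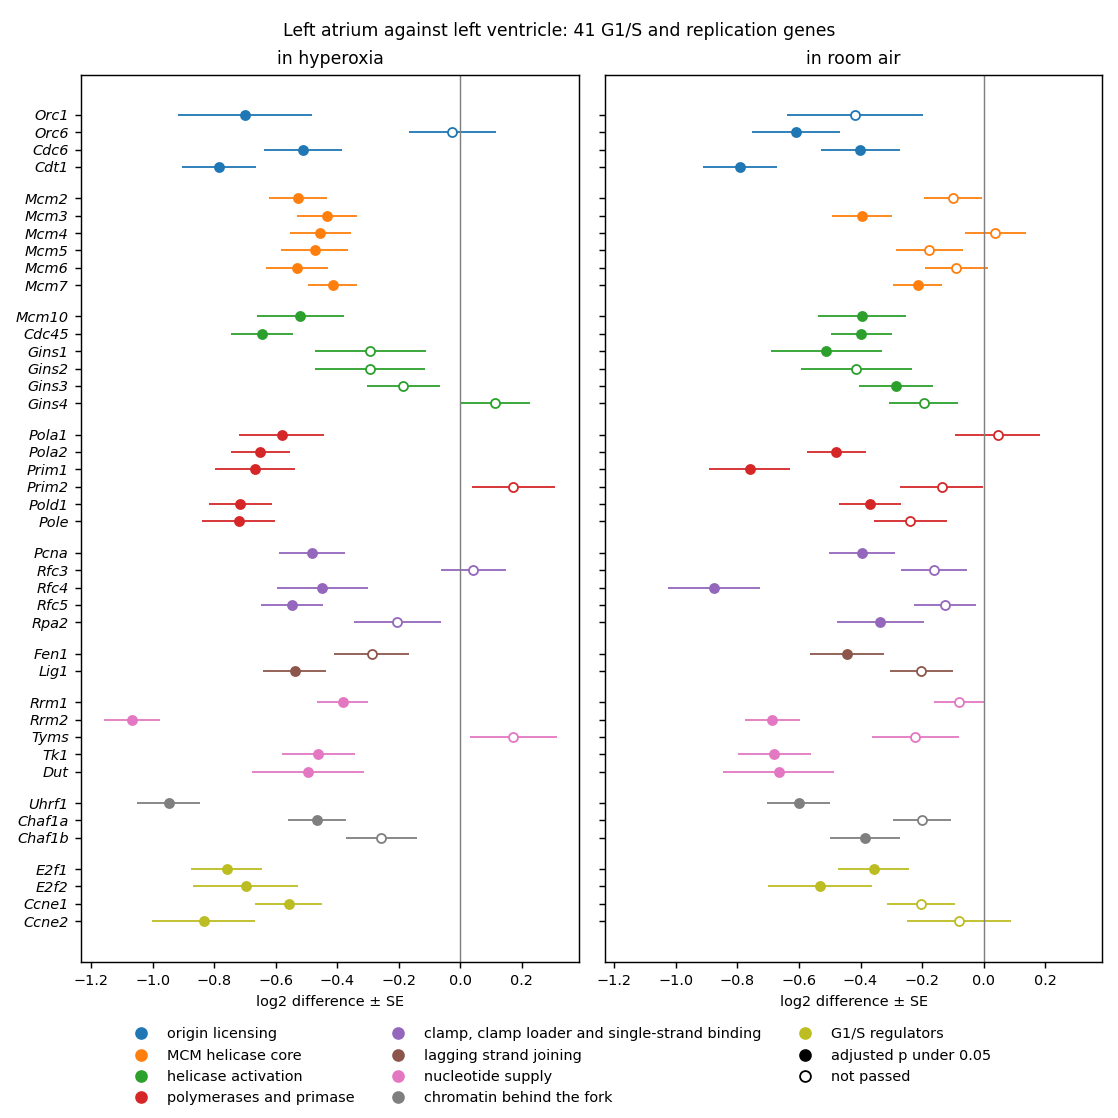
Log2 difference of left atrium against left ventricle (x axis, points with standard error bars) for the 41 genes (rows, coloured by role) in hyperoxia (left) and in room air (right), with filled points where the adjusted p was under 0.05. In hyperoxia 30 points and in room air 23 points are filled, all to the left of 0.

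Per kilobase of annotated exon, which allows levels of different genes to be compared, Rrm2 was at 63.1 CPM per kilobase in hyperoxic ventricles and 54.4 in room-air ventricles, and Pcna at 48.2 and 40.6. Orc1 was the lowest of the 41, at 1.19 CPM per kilobase in hyperoxic and 0.78 in room-air ventricles. In the atria Pcna and Rrm2 lay close together, at 34.5 and 30.1 CPM per kilobase in hyperoxia and 30.9 and 33.8 in room air. Exon lengths are the union of all annotated exons and can exceed the transcript in use.

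Marker lists also differed between the chambers. In hyperoxia all 5 endothelial markers and 4 of 5 cardiomyocyte markers were lower in the atrium, and all 5 macrophage markers and 5 of 6 erythroid markers were higher. Endothelial markers summed to between 484 and 719 CPM in hyperoxic atria, against 1162 to 1364 CPM in hyperoxic ventricles, and cardiomyocyte markers to between 17120 and 27978 CPM, against 28218 to 31634 CPM. In room air endothelial markers summed to between 814 and 979 CPM in atria, against 1249 to 1645 CPM in ventricles, with 3 of 5 lower. There 3 of 5 cardiomyocyte markers were lower too, and all 5 fibroblast, all 5 macrophage and 1 of 6 erythroid markers were higher. Of the 5 fibroblast markers 2 were higher and 2 lower in hyperoxia. Of the 5 smooth muscle and pericyte markers 3 were lower in hyperoxia, and 4 were lower and 1 higher in room air. Of the 5 epicardial markers 4 were higher in hyperoxia, and 4 were higher and 1 lower in room air. Which cells carry the replication transcripts cannot be told from whole-chamber RNA.

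A companion list holds 53 further genes of replication. In the hyperoxic ventricle 10 of the 53 were higher and 1 was lower, against 5.64% and 5.28% of all genes tested. The values of this list and of the E2F and mitosis lists below are from the fit of all libraries. Their calls under the other settings are not given here. The 3 with the smallest p were Exo1, a nuclease of repair and fork processing (12.1 ± 1.31 CPM in hyperoxic and 7.97 ± 0.93 CPM in room-air ventricles, log2 0.60, adjusted p = 0.0055), Orc2 (log2 0.33, adjusted p = 0.012) and Cdc25a, the phosphatase that activates Cdk2 (log2 0.37, adjusted p = 0.013). Pold4, the smallest subunit of polymerase delta, was the lower one (5.8 ± 1.06 against 9.88 ± 2.21 CPM, log2 -0.77, adjusted p = 0.011). Cdk2, the kinase partner of cyclin E, is named beyond the 3 with the smallest p. It had 80.4 ± 2.6 CPM in hyperoxic and 64.4 ± 6.95 CPM in room-air ventricles (log2 0.32, adjusted p = 0.038). In the hyperoxic atrium it fell, to 51.4 ± 7.92 CPM against 63 ± 3.39 CPM in room-air atria (log2 -0.29, adjusted p = 0.018), and the 2 responses differed by -0.61 (SE 0.14, adjusted p = 0.0018).

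In the atrium 11 of the 53 companion genes were higher in hyperoxia and 3 lower, against 19.7% and 24.2% of all genes tested, so the share higher was near that of all genes. Shmt1, a folate enzyme that feeds thymidylate synthesis, had 22.5 ± 1.77 CPM in hyperoxic and 9.89 ± 0.89 CPM in room-air atria (log2 1.19, SE 0.13, adjusted p = 2.4e-07). Recql4, a helicase of replication initiation, had 10.1 ± 1.78 CPM in hyperoxic and 4.94 ± 0.83 CPM in room-air atria (log2 1.03, adjusted p = 1.6e-05), and Orc4 had a log2 difference of 0.50 (adjusted p = 0.00014). Mcm9, Ccna2 and Cdk2 were the lower genes, at -0.49, -0.31 and -0.29. Between the chambers, 29 of 53 were lower in the atrium and 3 higher in hyperoxia, against 23.6% and 25.2% of all genes tested. In room air 25 were lower and 1 higher, against 26.3% and 28.7%. Geminin (Gmnn), the inhibitor of Cdt1, was among the lower ones in room air, at 18.1 ± 3.38 CPM in atria and 50.8 ± 8.46 CPM in ventricles (log2 -1.49, adjusted p = 5.0e-07).

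Of 18 genes for other E2Fs, pocket proteins, cyclin D and their inhibitors, 4 rose and 5 fell in the hyperoxic atrium, and 1 rose in the hyperoxic ventricle. These shares are near those of all genes tested (19.7% and 24.2% in the atrium, 5.64% in the ventricle), and the genes named here were chosen after their values were seen. Cdkn1a, the p53-induced inhibitor of cyclin E with Cdk2, had 238 ± 24 CPM in hyperoxic and 45.4 ± 3.17 CPM in room-air atria (log2 2.39, SE 0.11, adjusted p = 3.1e-12). In the ventricle it had 68.6 ± 11.9 CPM under hyperoxia and 70.9 ± 6.3 CPM in room air (log2 -0.05, adjusted p = 0.80), and the responses differed by 2.44 (SE 0.155, adjusted p = 1.7e-09). Ccnd1, which encodes cyclin D1, had 50.2 ± 2.55 CPM in hyperoxic and 34.2 ± 3.56 CPM in room-air atria (log2 0.55, adjusted p = 1.6e-05). The DNA-binding partner gene Tfdp2 (-0.78) and the pocket protein gene Rbl2 (-0.95) fell in the atrium, and so did the repressor E2Fs E2f7 (-0.56) and E2f8 (-0.53). E2f6, a repressor E2F, was the gene that rose in the ventricle (57.4 ± 4.93 against 39.7 ± 4.81 CPM, log2 0.53, adjusted p = 0.0010).

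Genes of mitosis, which act later in the same cycle, were the nearest list for comparison. Of 30 mitosis genes 8 were lower in the hyperoxic atrium, a share near the 24.2% of all genes tested, led by Incenp (log2 -0.40, adjusted p = 0.00034), Aurkb (-0.37, adjusted p = 0.0017) and Cenpf (-0.48, adjusted p = 0.0030). In the hyperoxic ventricle 1 was higher, the kinetochore gene Knl1 (log2 0.69, adjusted p = 0.039), against 5.64% of all genes tested. Their sum was 1478 ± 141 CPM in hyperoxic and 1667 ± 169 CPM in room-air atria, and 2347 ± 88.1 CPM in hyperoxic and 2269 ± 57.1 CPM in room-air ventricles. In the chamber comparisons 29 of 30 were lower in the atrium in hyperoxia and 21 of 30 in room air. Over all genes tested these shares were 23.6% and 26.3%. No test of the difference between the replication and mitosis lists was made.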

How the data were processed

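Messenger RNA was sequenced from 20 libraries, 5 in each of 4 groups of chamber and oxygen level, with 26510081 to 38244117 counted reads per library. The deposited values are whole-number counts of reads per gene symbol. The reads were processed with fastp 0.20.1, STAR 2.7.6a, Subread 2.0.1 with featureCounts, and Salmon 1.3.0 on GRCm38.p6, per the submitters' processing notes; the annotation release and the strand setting are not given in the sources used here. The TruSeq Stranded mRNA kit is named in the labels' protocols, which disagree on the RNA extraction kit.

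From the deposited counts, 16598 of 55367 symbols were kept by edgeR's filterByExpr, scaled by TMM and tested in 1 model of the 4 groups with edgeR 4.0.16 in R 4.3.3 (robust quasi-likelihood F-test, Benjamini-Hochberg over all genes tested, called under 0.05). SE is the log2 difference divided by the root of F. CPM use the TMM-scaled library sizes. The common biological coefficient of variation was 0.183. The pipeline was tested on simulated data. Alternatives used DESeq2 1.42.0, limma 3.58.1 (voom), other scalings and filters, a block on replicate number, covariates and left-out libraries; 3 ventricles (hyperoxic 4, room-air 1 and 4) were left out because earlier results of these data set them apart. Every library's value is given for the 3 members with the smallest p in each direction of each comparison, provided that the group with more of it averaged 5 CPM or above. Of the companion and mitosis lists up to 3 genes per direction are named, and Cdk2 in the ventricle beyond this rule. Libraries of a group differed by more than sampling noise (smallest chi-square per degree of freedom 12.3), so none was counted as a repeat. Group n is 5 animals per the series text. The members and lists were chosen with earlier results of these data known. Promoter windows and motif words were read from RefSeq (GRCm38.p6), and gene positions from GENCODE on GRCm38.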

Additional observations from a re-analysis of the deposited data

Results flagged for a closer look

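In the 164 sets of 5 libraries (41 genes in 4 groups), 6 held a library whose gap to its nearest neighbour exceeded 0.71 of the range, where chance gives about 1 in 20. Mcm6 had 92.1 CPM in hyperoxic atrium 4, against 76.8 to 80.9 CPM in the other 4. Room-air ventricle 4, a library tilted towards short transcripts, was highest for Gins4 (34.8 CPM, others 27.9 to 28.9), Rpa2 (46.5 CPM, others 32.7 to 36.5) and Dut (95.3 CPM, others 59.0 to 66.0). Gins4 had 28.9 CPM in room-air atrium 4, against 24.6 to 25.5 CPM in the others, and E2f2 was lowest in room-air atrium 5 with 6.41 CPM, against 8.51 to 9.28 CPM.

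For 10 genes the oxygen response differed between the chambers by the test of the difference itself (log2, atrium minus ventricle), 1 higher and 9 lower, against 17% higher and 19.5% lower of all genes tested. The values were -0.49 for Mcm4, -0.63 for Pola1, -0.43 for Mcm2, -0.75 for Ccne2, -0.44 for Mcm6, -0.38 for Rrm2, -0.42 for Rfc5, -0.48 for Pole, -0.30 for Rrm1 and 0.58 for Orc6.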

How the results depend on the processing

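Counts are of the 41 genes. Shares over all genes under the same settings are not set beside them. Over all genes, for example, those higher in the hyperoxic ventricle numbered 936 of 16598 in the main fit. They numbered 535 of 31728 with no filter and 1561 of 16598 with voom. The Y-rich fits hold 1 hyperoxic atrium (number 2, a tilted library), assumed to vary like the other groups, so their atrial counts rest on that library. Atrial genes higher in hyperoxia (2) numbered 4 with upper-quartile scaling, 7 with a filter of 1 CPM in 5 libraries, 4 with DESeq2, 4 with voom, 4 with only the atria, 1 without the tilted libraries, 1 with the length slope, 0 with Y-linked reads, 8 in the Y-rich libraries alone and 0 with both covariates. Atrial genes lower (0) numbered 4 with voom, 3 without the tilted libraries, 4 with length, 1 with Y-linked reads, 2 in the Y-rich libraries, 2 with both covariates and 3 without the 3 ventricles set apart. Ventricular genes higher (10) numbered 5 with no filter, 16 with voom, 16 with length, 0 with Y-linked reads, 0 in the Y-rich libraries, 0 with both, 0 with Myl7 and 1 without the 3 ventricles. Responses higher in the atrium (1) numbered 0 with voom, 0 without the tilted libraries, 0 with length, 4 in the Y-rich libraries, 0 with both and 0 without the 3 ventricles; those lower (9) numbered 5 with upper-quartile scaling, 5 with the 1 CPM filter, 15 with voom and 3 with Myl7. In hyperoxia 1 gene was higher in the atrium than in the ventricle in the Y-rich libraries and 1 without the 3 ventricles, against 0.

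Leaving out 1 library gave 2 to 6 higher and 0 to 3 lower in the atrium, 2 to 11 higher and 0 lower in the ventricle, 0 to 3 higher and 4 to 13 lower for the difference, 29 to 32 lower between chambers in hyperoxia and 19 to 30 in room air.

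Libraries of 1 number did not all deviate together (correlations of atrium with ventricle of 0.01 to 0.27 in hyperoxia and -0.06 to 0.56 in room air), so the numbers were not taken as pairs. Whether a number marks 1 mouse is not stated in the labels. In hyperoxia number 2 held more Y-linked than Xist reads in both chambers, and numbers 1, 4 and 5 fewer in both. A number may thus mark 1 mouse, and the main chamber tests did not use such pairing. With a replicate block of oxygen level and number, the median log2 difference between chambers was -0.47 in hyperoxia and -0.37 in room air. With a replicate block of the number, 4 atrial genes were higher and 3 lower, 9 ventricular genes were higher and 3 responses were higher in the atrium; with a replicate block of oxygen level and number, 3 responses were higher. Numbers 4 and 5 in hyperoxia and 3, 4 and 5 in room air correlated best with their own number, and the others did not.

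Direction turned with both covariates for the atrial Orc6 (-0.0041) and Rfc4 (-0.019). Dut turned in the atrium to -0.25 with voom, -0.35 without the tilted libraries, -0.44 with length and -0.61 with both, and in the ventricle to 0.34 with length. For the difference, with length and with both, values turned to -0.60 and -0.60 for Gins1, -0.021 and -0.075 for Orc6, and -0.47 and -0.56 for Rpa2. Dut turned to -0.42 without the tilted libraries, -0.78 with length and -0.85 with both, and Prim1 to -0.48 with both. The causes were not tested. The median of the 41 genes for the difference (-0.17) was -0.08 with the 1 CPM filter and -0.31 with length. Over single genes and alternatives, a call was lost in 273 cases and gained in 223 with the direction kept. In 17 further cases, with a call in at least 1 of the fits compared, the direction turned. Another 6703, most of them without a call in either fit, kept their side of the threshold and, where called, their direction. Orc1 has the lowest level of the members, and the effect of depth was not tested.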
